A study of Mus musculus with 2 samples.

Results

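The genes described here are 10 components of the unfolded protein response and the integrated stress response: Atf4, Ppp1r15a, Herpud1, Ddit3, Xbp1, Sdf2l1, Atf6, Eif2ak3, Trib3 and Ern1. They were chosen by name, with earlier results of these data known, and all 10 were found among the 23456 genes of the table. Their levels were measured in eosinophils, granulocytes that live in the healthy gut wall, taken from the colons of naive wild-type C57BL6 mice, which received no treatment named in the labels. The colons were digested with enzymes, the cells were sorted by flow cytometry, and RNA was read with CEL-Seq, which sequences tags near the 3′ end of transcripts. The 2 samples form 1 group, each with 3 technical libraries, and the labels give neither the age of the mice, nor how many were used, nor the sort gate. For each transcript the table holds a read total and an RPKM, the reads per kilobase per 1000000 reads, both averaged over all libraries, so every value below is the authors' mean, without an SD or a test between conditions, and describes sorted cells after digestion rather than cells in the tissue. In bulk samples, fewer cells of a type and less RNA per cell cannot be told apart. Of 8 eosinophil markers, 7 reached an RPKM of 1, led by Alox15 at 230, Ccr3 at 155, Siglecf at 77.9 and Il1rl1 at 75.6, whereas the peroxidase gene Epx, named after its value was seen, had 0.265.

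The unfolded protein response adjusts the folding capacity of the endoplasmic reticulum (ER). Its 3 sensors span the ER membrane: PERK, encoded by Eif2ak3, phosphorylates the translation factor eIF2; IRE1, encoded by Ern1, cuts Xbp1 mRNA; and ATF6 is cleaved in the Golgi to release a transcription factor. The integrated stress response starts from the same phosphorylated eIF2, whichever of several kinases acts, and raises translation of ATF4 while most other translation falls. XBP1 is known to be required for the development of eosinophils, cells that fill their granules with secreted proteins. Much of this signalling is set by RNA cleavage, translation and protein processing, which mRNA levels do not measure.

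Sequences that show where this regulation acts are given first. The Xbp1 stretch below holds the known cut site of IRE1; capitals mark a pair of matches to the loop motif CNGCAGN, each cut after base 3, so that the 26 bases between the cuts are removed and the reading frame shifts. It was read on the RNA strand from the GENCODE M21 transcript and lies in coding exon 4 of 5 on the plus strand, chr11:5524264-5524320 in mm10.
Xbp1: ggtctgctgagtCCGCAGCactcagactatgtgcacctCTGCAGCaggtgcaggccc
The motif alone is not specific: Xbp1 held 7 matches, 3 pairs of them spaced by 20 to 40 bases and 2 at exactly 26, the other in exon 1, and 1.42% of 22790 transcripts held a pair at that spacing. The cut site lies 1285 bases from the 3′ end of that transcript, and the table lists both RefSeq forms of Xbp1 with an identical mean of 55.2 reads. The unspliced form (NM_013842) had an RPKM of 7.17 and the spliced form (NM_001271730) 7.26, a ratio of 1.01 that comes only from the length by which equal reads were divided, so these values do not measure splicing.

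Promoters were searched on both strands for 5 motifs in RefSeq windows (GRCm38.p6, the mm10 assembly) from 250 bases before to 50 after the gene start, of which 32851 exist, 9 of them of the genes described here. The motifs were ERSE (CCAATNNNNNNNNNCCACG) and ERSE-II (ATTGGNCCACG), which bind ATF6, UPRE (TGACGTGG), which binds XBP1 and ATF6, CARE (TGATGNAAN), which binds ATF4 with C/EBP factors, and CRE (TGACGTCA), which binds CREB and ATF factors. A window for Atf6 was not used here. Herpud1 held an ERSE-II match beginning 52 bases before the start, a motif in 0.0365% of all windows, and a CARE match on the opposite strand beginning 113 bases before it. Positions are counted from the RefSeq gene start of the window, which for Herpud1 lies 71 bases before the start of its row in the table. Ppp1r15a held a CRE match beginning 12 bases before its start. These windows are shown with the matches in capitals, as chr8:94386286-94386417 on the plus strand and chr7:45526269-45526310 on the minus strand.
Herpud1: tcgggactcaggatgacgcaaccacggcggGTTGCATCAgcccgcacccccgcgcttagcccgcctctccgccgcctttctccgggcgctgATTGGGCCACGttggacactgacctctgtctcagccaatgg
Ppp1r15a: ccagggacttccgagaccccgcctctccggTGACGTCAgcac
Trib3 held a CARE match that began 14 bases into the transcribed region. CARE was found in 3.95% and CRE in 1.79% of all windows, UPRE in 0.676% and ERSE in 0.119%, and neither UPRE nor the full ERSE was found in the 9 windows. A match is a description of letters and not evidence of binding.

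Of the 10 genes, 8 had an RPKM of at least 1, a level that 31.0% of all genes reached. Their median RPKM was 7.08, beside 0.186 over all genes and 4.28 over the 7282 genes that reached 1. The levels were very uneven: Atf4 and Ppp1r15a alone held 92.1% of the 19353 reads on the 10 genes. Higher up, 6 of them reached an RPKM of 5 (14.2% of all genes did), 3 reached 10 (8.78%) and 2 reached 100 (1.28%), and all 10 were above 0 (69.1%). On reads per 1000000 reads on genes (RPM), 9 reached 1 (50.9%), as they did on RPKM rescaled to a sum of 1000000 (47.5%). More of all genes also reached 1 on those scales than the 31.0% by RPKM, so the cut was looser there. Values in brackets are exact 95% Poisson intervals of the reads summed over the 6 libraries, scaled to RPKM. The scale was each gene's mean RPKM divided by its summed reads, taken as fixed. Unequal weights of the libraries in that mean are not covered, also in the RPKM ratios. They cover counting error only and no spread between mice, and reads copied by amplification are counted separately, since the labels name no molecular identifiers.

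**Figure D1:**
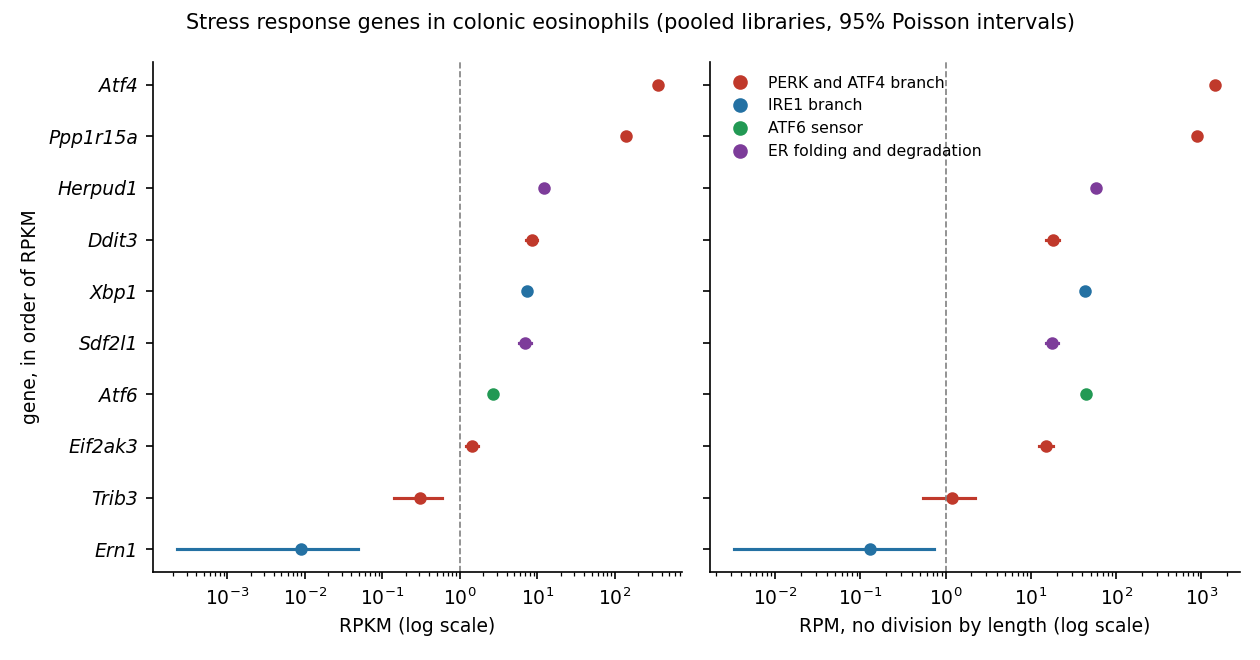
Levels of the 10 stress response genes as RPKM (left) and as RPM, without division by length (right), both on log axes, with genes in order of RPKM. Points are the authors' pooled values, lines are 95% Poisson intervals and colours mark branches. The dashed line marks 1, a looser cut by RPM than by RPKM. Atf4 and Ppp1r15a stand above the other 8 on both scales, while Trib3 and Ern1 lie below the rest.

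In the PERK and ATF4 branch, Atf4 and Ppp1r15a were far above Ddit3, the kinase gene Eif2ak3 and Trib3. Atf4, the transcription factor that carries the integrated stress response, had an RPKM of 357 (349.9 to 363) from 11079 reads, rank 83 of all genes. Its row (NM_009716) lies on chromosome 15 from 80255184 to 80257541 on the plus strand. Ppp1r15a, also known as GADD34, the stress-induced subunit that brings protein phosphatase 1 to eIF2 and restores translation, had 138 (134 to 141) from 6754 reads, rank 209. Its row (NM_008654) lies on chromosome 7 from 45522917 to 45526268 on the minus strand. Both genes were thus among the most abundant 1% of transcripts by RPKM, with 99.7% and 99.1% of genes at or below them.

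Ddit3, which encodes CHOP, a factor that ATF4 induces and that promotes death under lasting ER stress, had an RPKM of 8.43 (7.08 to 9.95) from 139 reads. Atf4 was 42.3-fold (35.8 to 50.4) above Ddit3 by RPKM and 79.7-fold (67.4 to 94.9) by reads. Ddit3 (NM_007837, chromosome 10 from 127290793 to 127296288, plus strand) overlaps Mars1, listed as Mars in GENCODE, on the opposite strand within its last 500 bases. Mars1, a methionyl-tRNA synthetase, had 36 reads, and since the use of strand in counting is not given, reads from these genes cannot be told apart. Tulp2 overlaps the end of Ppp1r15a in the same way and had 2 reads.

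Eif2ak3, the sensor kinase PERK, had an RPKM of 1.45 (1.20 to 1.73) from 117 reads (NM_010121, chromosome 6 from 70844527 to 70905240, plus strand). Trib3, a pseudokinase that ATF4 and CHOP induce and that restrains ATF4, had 0.308 (0.141 to 0.585) from 9 reads (NM_175093, chromosome 2 from 152337425 to 152344060, minus strand). Ppp1r15a and Trib3 are both described as ATF4 targets, and their levels differed 447-fold (235 to 978) by RPKM and 750.4-fold (395 to 1642) by reads.

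In the IRE1 branch the substrate was measured and the sensor nearly was not. Xbp1 had an RPKM of 7.26 (6.50 to 8.08) from 331 reads (chromosome 11 from 5520641 to 5525993, plus strand). Ern1 had 0.00882 (0.000223 to 0.0491) from 1 read in all 6 libraries (NM_023913, chromosome 11 from 106397620 to 106487796, minus strand). The row of Ern1 stops short of the annotated gene: the farthest coding transcript of GENCODE M21 ends 2970 bases beyond it, while for the other 9 genes the GENCODE end lay at most 19 bases beyond the row. Such a gap of over 1000 bases was found for 15.6% of 19736 genes, of which 24.3% reached an RPKM of 1, beside 37.7% where both ends lay within 100 bases. As CEL-Seq tags lie near the 3′ end, tags beyond the row would not be counted in it; the part of this gap in the level of Ern1 was not tested. Ern2, the IRE1 form known from mucus-secreting epithelium, had 0.273 (0.153 to 0.451) from 15 reads, beside goblet cell markers of which 7 of 8 reached an RPKM of 1, and its source was not tested.

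Atf6, the remaining sensor and itself the precursor of a transcription factor, had an RPKM of 2.66 (2.39 to 2.96) from 341 reads (NM_001081304, chromosome 1 from 170704457 to 170867771, minus strand). Its paralog Atf6b had 3.78 (3.27 to 4.35), an RPKM 1.42-fold (1.18 to 1.70) that of Atf6, although Atf6b had fewer reads, 196 against 341. The difference between this pair therefore turned with the division by length.

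Herpud1 and Sdf2l1 are ER-resident products of the response. Herpud1, which helps to carry misfolded proteins to ER-associated degradation, had an RPKM of 12.3 (11.2 to 13.5) from 446 reads and was the highest of the 10 after Atf4 and Ppp1r15a (NM_022331, chromosome 8 from 94386500 to 94395358, plus strand). Sdf2l1, a cofactor that works with the chaperone BiP, had 6.90 (5.79 to 8.16) from 136 reads (NM_022324, chromosome 16 from 17130138 to 17132383, minus strand). No more than 0.644% of the 35-base words in the last 500 bases of any of the 10 transcripts occurred in a transcript of another gene.

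By RPKM the order was Atf4, Ppp1r15a, Herpud1, Ddit3, Xbp1, Sdf2l1, Atf6, Eif2ak3, Trib3 and Ern1. Of the 9 neighbouring pairs, 7 had a ratio whose counting interval excluded 1. Ddit3 and Xbp1 (ratio 1.16, 0.946 to 1.42) and Xbp1 and Sdf2l1 (1.05, 0.859 to 1.29) were not separated by RPKM. By reads without length the intervals of all 9 ratios excluded 1, and these 2 pairs stood at 0.420 (0.342 to 0.513) and 2.43 (1.99 to 2.99). The step from Sdf2l1 to Atf6 turned from 2.59 (2.11 to 3.17) by RPKM to 0.399 (0.324 to 0.488) by reads. The widest step among genes with over 100 reads was from Ppp1r15a to Herpud1, 11.2-fold (10.2 to 12.3). Reads without division by length gave another order in the middle: Atf6 with 341 reads and Xbp1 with 331 then stood above Ddit3 with 139, because the rows of short transcripts such as Ddit3 are raised by RPKM.

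**Figure D2:**
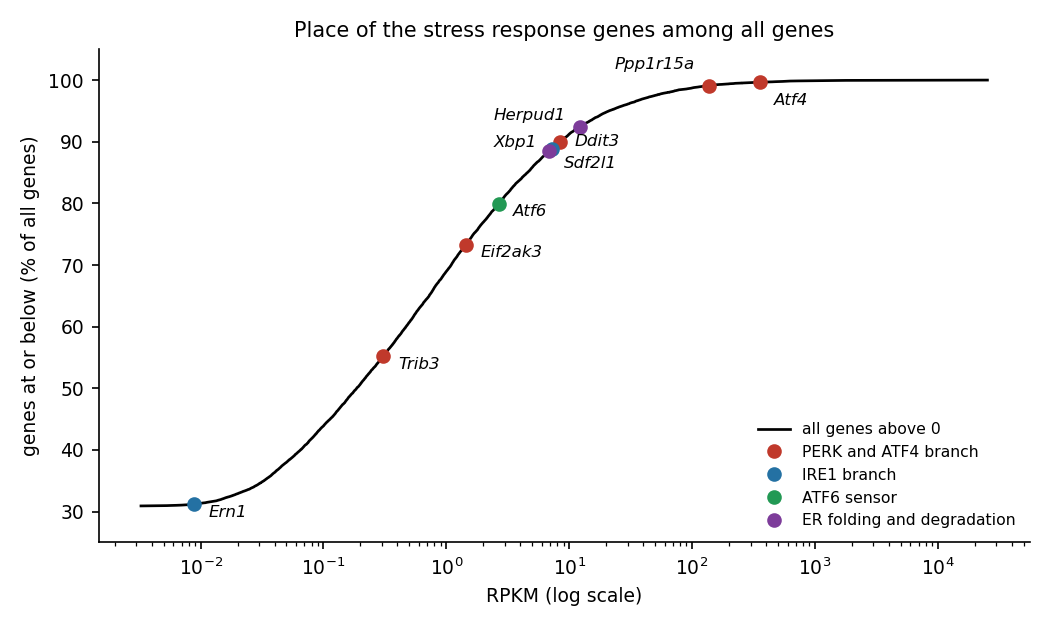
Place of each of the 10 genes on the cumulative distribution of RPKM over all genes, with RPKM on a log axis and the percent of genes at or below that level on the vertical axis. Colours mark branches; Atf4 and Ppp1r15a lie above 99% of genes, 6 of the genes lie between 73% and 93%, Trib3 lies at 55.2% and Ern1 at 31.2%, where the curve of genes above 0 begins.

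The wider pathway was described with 8 lists, chosen with earlier results of these data known. They held 129 genes, the 10 described here included, and 96 of the 129 reached an RPKM of 1 (31.0% of all genes did). Up to 4 of the highest genes of each list are named. Relatives of the 10 genes outside those (Ern2, Ppp1r15b, Eif2ak2, Eif2ak4, Atf5 and Herpud2) were chosen once their values had been seen.

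Of the sensors and eIF2 kinases, 5 of 10 had an RPKM of at least 1 (list median 1.07). Eif2ak1, the heme-regulated kinase HRI, was the highest at 12.2 (11.2 to 13.2), ahead of the protease gene Mbtps1, whose product cleaves ATF6, at 4.18, Atf6b at 3.78 and Atf6 at 2.66. Among the 4 kinases that phosphorylate eIF2, Eif2ak1 was 8.41-fold (6.89 to 10.3) above Eif2ak3 by RPKM and 5.32-fold (4.36 to 6.54) by reads. Eif2ak3 in turn was 2.09-fold (1.49 to 2.97) above Eif2ak2, the double-stranded RNA sensor PKR, and 2.37-fold (1.65 to 3.49) above Eif2ak4, the amino acid sensor GCN2. The 4 kinases stood in that order by reads as well.

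On the phosphatase side, 9 of 13 genes for eIF2, eIF2B and the phosphatase had an RPKM of at least 1 (list median 1.80). The catalytic subunit gene Ppp1cb had 155 and Ppp1r15a 138, followed by Ppp1ca at 34.9 and the eIF2 alpha subunit gene Eif2s1 at 4.47. The constitutive counterpart of Ppp1r15a, Ppp1r15b, had 3.12, so the stress-induced subunit was 44.2-fold (39.3 to 49.8) higher by RPKM and 22.8-fold (20.3 to 25.7) by reads.

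The bZIP factors, the family of ATF4, CHOP and XBP1, had the highest median RPKM of the 8 lists, 8.43, and 11 of 13 reached 1. Atf4, Ddit3 and Xbp1 are in this list, and without these 3 its median was 7.34 and 8 of the remaining 10 reached 1. Atf3, a factor that ATF4 and other signals induce, led at 467 (459.75 to 474), followed by Atf4 at 357, Cebpb at 304 and Jdp2 at 14.0. Atf3 was 1.31-fold (1.28 to 1.34) above Atf4. Atf5, a relative of ATF4 under similar translational control, had 3.02. Atf4 was 118-fold (98.0 to 143) above Atf5 by RPKM and 98.0-fold (81.5 to 119) by reads.

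Of the ATF4 and CHOP targets, 16 of 26 had an RPKM of at least 1 (list median 1.54). Ppp1r15a was the highest, followed by the amino acid transporter chain Slc3a2 at 90.3, the mTOR inhibitor Ddit4 at 11.0 and Bcl2l11, which encodes the death-promoting protein BIM, at 9.60. Phgdh, the first enzyme of serine synthesis, was listed at 0, for which a limit of up to 3 reads was used, one-sided unlike the intervals above. Of the searched words of Phgdh, 44.6% are also in another gene. Of the IRE1 partners, 7 of 9 had an RPKM of at least 1 (list median 2.52). The highest were Tmbim6, which encodes the IRE1 regulator BAX inhibitor-1, at 55.4 and Bax at 5.09. The tRNA ligase Rtcb, which joins the cut ends of Xbp1 mRNA, had 4.10 and Map3k5 had 3.09.

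Of the ER chaperones and folding enzymes, 18 of 20 had an RPKM of at least 1 (list median 5.39). Hspa5, which encodes BiP, the chaperone that holds the sensors inactive, had 238 (234 to 242), the disulfide isomerase Pdia6 had 103, the lectin chaperone Calr 35.3 and Hsp90b1 11.8. Hspa5 was 20.2-fold (18.6 to 22.0) above Hsp90b1, another major chaperone of the ER lumen. Sdf2l1 was in place 9 of this list.

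For ER-associated degradation, 15 of 20 genes had an RPKM of at least 1 (list median 2.90). The lectin Os9 had 30.8, the conjugating enzyme Ube2j1 20.1 and the extracting ATPase Vcp 16.1. Herpud1 was 1.94-fold (1.67 to 2.25) above its paralog Herpud2 at 6.36. Of the XBP1 targets in secretion, 17 of 20 did so (list median 5.04), the highest being the translocation gene Sec62 at 93.8, Ssr4 at 46.5, the signal peptidase subunit Spcs2 at 23.2 and the glycosylation subunit Ddost at 19.2. Sec61g and Srp54a were listed at 0; of the searched words of Sec61g, 75.5% are also in another gene.

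**Figure D3:**
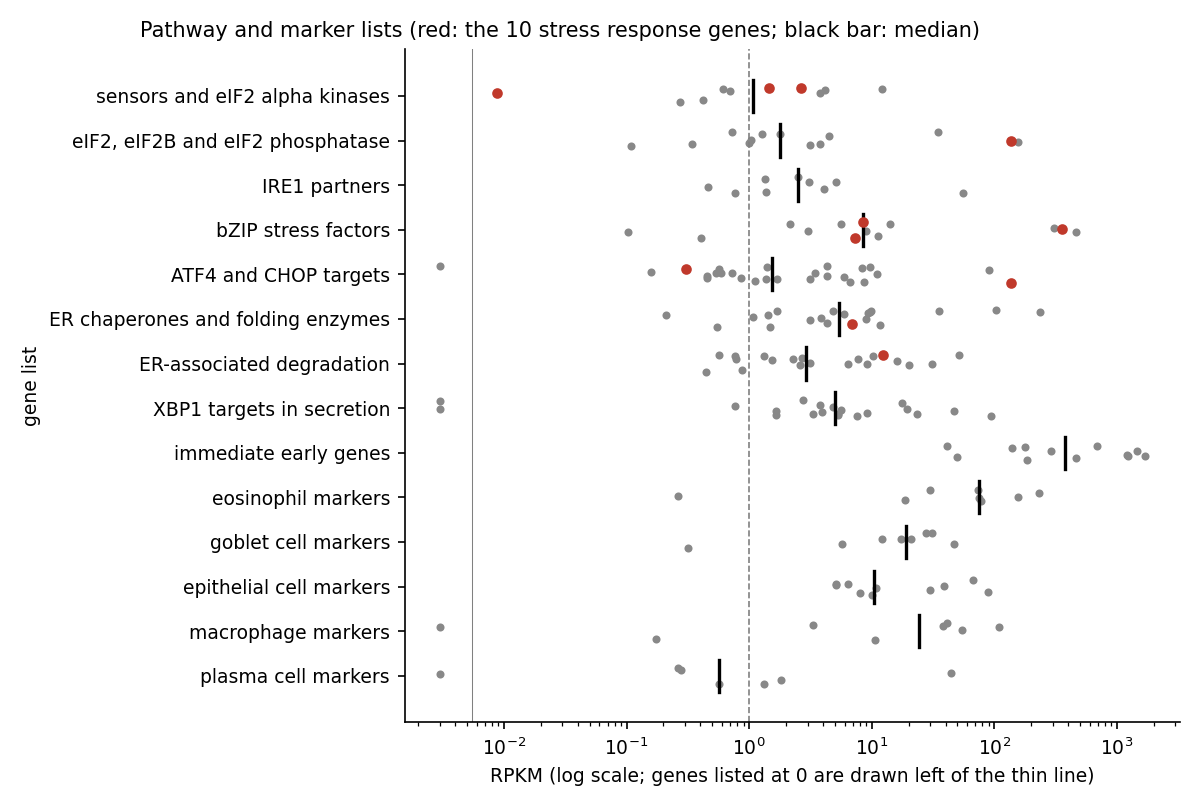
RPKM of every gene in 8 pathway lists, the immediate early genes and 5 lists of cell type markers, on a log axis, with 1 dot per gene, red dots for the 10 stress response genes, a black bar at the median of each list and a dashed line at an RPKM of 1. The bZIP list has the highest median of the pathway lists, 8.43, below that of immediate early genes, 378, and Ern1 is the lowest dot above 0.

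The leaders of these mRNAs, the part before the coding region, differ in upstream ATG codons, which in some arrangements let eIF2 phosphorylation control translation. At least 1 upstream ATG was found in 5 of the 10 genes and in 46.6% of 20196 transcripts, so the share was close to that of all transcripts. Atf4 had 3 in a leader of 594 bases, 1 of which opened a frame that overlaps the start out of frame, the arrangement known to hold ATF4 translation low without stress. Ppp1r15a had 3 in 283 bases and Ddit3 had 2 in 186 bases, all of which closed before the start. Eif2ak3 had 3 in 211 bases, 2 of them overlapping the start, and Xbp1 had 1 in 336 bases. Atf6, Ern1, Herpud1, Sdf2l1 and Trib3 had 0. A frame overlapping the start was found in 15.4% of transcripts, and the median leader was 139 bases. Atf4 and Ppp1r15a, the 2 most abundant of these mRNAs, had 3 upstream ATG codons each, and 26.3% of all transcripts had 2 or more. A link between mRNA level and upstream ATG codons was not tested. The protein levels of Atf4 and Ppp1r15a were not measured.

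The levels of immediate early genes and of markers of several cell types are set beside these levels. All 12 immediate early genes, many of which respond to enzymatic digestion, had an RPKM of at least 1 (list median 378), the highest being Jun at 1679, Zfp36 at 1471, Junb at 1239.6 and Fosb at 1210.3; Atf3 is also in this list. Atf4 at 357 and Ppp1r15a at 138 lay below that median but within the range of the list, 41.0 to 1679. The part of digestion in their levels was not tested, since no undigested colon was measured. Plasma cells and goblet cells are known for high XBP1 activity: 3 of 7 plasma cell markers reached an RPKM of 1 (range 0 to 44.1, with Tnfrsf17 listed at 0), led by Jchain at 44.1, then Mzb1 at 1.83, with Sdc1 at 1.32 and Derl3 at 0.568. The value of Mzb1 is uncertain, as another gene shares 99.8% of its searched words. Goblet cell markers ranged from 0.314 to 46.7, led by Zg16 at 46.7, Muc2 at 30.8, Tff3 at 27.6 and Spink4 at 20.8. All 10 epithelial markers reached an RPKM of 1, from 5.09 to 89.3, with Epcam the highest, then Krt19 at 66.7, Car4 at 38.6 and Lgals4 at 30.1. Macrophage markers, some shared with eosinophils, reached it for 6 of 8, from 0 for Mertk to 109 for Adgre1, with Apoe at 54.3, Csf1r at 41.0 and C1qb at 37.9. Of the plasma cell markers, only Jchain was above Xbp1, which had 7.26. The goblet cell markers were above Xbp1 except Clca1 at 5.69 and Spdef at 0.314. How much of the Xbp1, Herpud1 and Sdf2l1 reads came from plasma cells, goblet cells or the other cell types was not tested.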

How the data were processed

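RNA of colonic eosinophils was read with CEL-Seq in 2 samples of 1 group. Reads were processed with STAR 2.4.2a and DESeq on build mm10, per the submitters' processing notes, and no source used here gives the read counter or the transcript lengths. The table holds 31295 transcripts and 2 value columns. The authors computed the RPKM column, per the file headers. Their deposited read totals are a signal averaged over 6 libraries: 100% of the totals times 6 are whole within 0.0001. There were 0 columns of other samples.

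Symbols were updated through RefSeq accessions for 30730 rows, and the row with the most reads was kept per gene, which left 23456 genes with 7692387 reads over the libraries, a mean of 1282064.5 per library. Xbp1 has 2 rows with equal reads, and the one with the higher RPKM was kept. Poisson intervals are exact and two-sided at 95%, ratios use the exact binomial split of reads, and a count of 0 is given a one-sided limit of 3 reads (0.390 RPM). Because CEL-Seq reads 1 end, RPKM raises short transcripts, and RPM was used as an alternative. RPM and RPKM also differ in scale, so a cut of 1 is not equally strict on both. The rule for named genes took the 10 genes, the 4 highest of each list and up to 3 genes listed at 0. A gene that the rule takes is not reported here. The members and lists were chosen with earlier results of these data known. Sequences came from GENCODE M21 and RefSeq. Scripts ran in Python 3.11.15 (matplotlib 3.10.9, scipy 1.17.1, pandas 2.3.3, numpy 2.4.6), and the intervals and the motif search were tested on simulated data. The simulated counts were Poisson draws, so the intervals were not tested under the wider spread that amplification or mice can add.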

Additional observations from a re-analysis of the deposited data

How the results depend on the processing

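No paired analysis was possible because the samples form 1 group and each column holds 1 pooled value, and leaving out a sample was not run for the same reason. The number of stress response genes at 1 or more stayed within 1.5 times of 8 under every alternative run: 9 by RPM and by RPKM rescaled to a sum of 1000000, 6 at an RPKM of 5 and 10 at any value above 0. No count could exceed 10, so only a fall could have crossed that limit, and the choice of row could change only Xbp1, which has 2 rows. By RPM and by rescaled RPKM, 50.9% and 47.5% of all genes reached 1, against 31.0% by RPKM. The cut was therefore looser on those scales. The median of 7.08 became 30.5 by RPM and 29.8 by rescaled RPKM, which are other units, and 7.66 when rows were summed. By RPM, 7 of the 10 genes kept their place, and also 7 when rows were summed, which counts the reads of Xbp1 for both of its rows. Of 56 list counts, 51 stayed within 1.5 times; the other 5 were of the sensors, the ATF4 and CHOP targets and the plasma cell markers. Depth limits Ern1 with 1 read and Trib3 with 9, whose intervals are the widest.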
